A study of Mus musculus with 9 samples.

Results

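Expression of 9 primitive endoderm markers was examined among the 38293 genes counted in E14, an embryonic stem cell line from mice of the strain 129/Ola. The markers were taken by symbol and comprised the transcription factor genes Gata6, Gata4, Sox17, Sox7 and Foxa2, the receptor gene Pdgfra, the endocytic genes Dab2 and Cubn, and Sparc, which encodes a secreted matrix protein. The study compared 3 culture states of the same cell line, with 3 libraries in each. mESC-2i, which the labels call Naive, grew in serum-free N2B27 medium with LIF and inhibitors of MEK and GSK3. The titles of these libraries also carry the letters LT, which those of the other states lack. mESC-ser, which the labels call Primed, grew on gelatin in foetal bovine serum with LIF and without the inhibitors. EpiLC, epiblast-like cells, were obtained from the naive cells on fibronectin in N2B27 with activin A, bFGF and KSR. RNA came from whole cultures, so that fewer cells expressing a gene and less RNA per cell cannot be told apart.

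Primitive endoderm is the extraembryonic lineage that separates from the epiblast in the inner cell mass and later forms the visceral and parietal endoderm of the yolk sacs. FGF4 made by epiblast precursors signals through FGF receptors and MEK, and Gata6 is the early factor that directs cells towards this fate. Pdgfra, Sox17, Gata4 and Sox7 follow in sequence, and Dab2, Sparc and Cubn belong to the epithelial and secretory program of the differentiated cells. Cultured embryonic stem cells are known to hold a minority of cells that express such genes. Foxa2 is shared with definitive endoderm, and Sparc is made by many cell types.

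The markers did not move as one group. Cubn was the marker with the largest difference between states. It was 70.7 times as high in mESC-ser as in mESC-2i (exact 95% interval 35.7 to 164), where it had 8 counts in all. Gata6 was 5.09 times as high. Foxa2 was lower in mESC-ser than in mESC-2i, in the opposite direction to Gata6. Gata4 was also lower, by a log2 fold change of only -0.50, and did not pass the thresholds used here under most other settings. In EpiLC, Gata4, Pdgfra, Dab2 and Sparc were lower than in both mESC states, whereas Cubn lay between the 2 mESC states. Outside Sparc, no marker averaged more than 18.6 CPM, which is counts scaled to library size, in any state.

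The promoters of the 3 markers that were called higher in mESC-ser and have an entry in the promoter table are shown here, because Cubn changed by far the most of them and Pdgfra fell nearly to 0 in EpiLC. Each is the 250 bases before the RefSeq transcription start (GRCm38.p6), 5′ to 3′ on the strand of the gene. Capitals mark matches to 5 spellings searched on both strands, AGATAA and TGATAA for GATA factors, ATTGTT for SOX factors, TGTTTAC for FOX factors and ATCAAAG for TCF/LEF factors. The spellings were settled after the sequences had been seen. The windows are chr2:13491877-13492126 on the minus strand for Cubn, chr15:6299539-6299788 on the plus strand for Dab2 and chr5:75152001-75152250 on the plus strand for Pdgfra.
Cubn: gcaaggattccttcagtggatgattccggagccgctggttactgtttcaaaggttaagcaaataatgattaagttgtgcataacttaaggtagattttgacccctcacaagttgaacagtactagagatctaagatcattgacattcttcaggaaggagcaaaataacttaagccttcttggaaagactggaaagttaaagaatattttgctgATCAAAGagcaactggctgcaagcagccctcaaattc
Dab2: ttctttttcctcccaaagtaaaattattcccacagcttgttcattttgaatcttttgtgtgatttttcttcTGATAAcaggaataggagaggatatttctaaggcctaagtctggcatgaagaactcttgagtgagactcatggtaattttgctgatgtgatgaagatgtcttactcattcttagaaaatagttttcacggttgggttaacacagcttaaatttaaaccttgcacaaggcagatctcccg
Pdgfra: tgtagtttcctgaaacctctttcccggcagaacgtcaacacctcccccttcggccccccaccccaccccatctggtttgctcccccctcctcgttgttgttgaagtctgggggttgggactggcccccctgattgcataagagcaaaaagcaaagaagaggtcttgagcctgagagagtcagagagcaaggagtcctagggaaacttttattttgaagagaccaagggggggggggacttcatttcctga

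Of the 5 markers with a promoter entry, Cubn held 1 match, to ATCAAAG, from position -37 to -31 before the start. Dab2 held 1 match, to TGATAA, from position -179 to -174. Pdgfra, Foxa2 and Sparc held none in the window nearest their annotated start. For Sparc that window, chr11:55420081-55420330, lies inside the annotated gene, whose start is at 55423183. The bases before that start were not searched. Over the 32851 mouse promoter windows of the same length, 9.99% held AGATAA, 7.94% TGATAA, 9.42% ATTGTT, 3.17% TGTTTAC and 3.21% ATCAAAG. These matches describe letters only. Gata6, Gata4, Sox17 and Sox7 had no entry.

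Library totals ranged from 7187576 to 16829549 counts, and a count of 3, the floor used here, corresponded to 0.172 to 0.403 CPM. Few counts limit the precision for Sox17 and Sox7, for Cubn in mESC-2i, and for Gata6 and Pdgfra in EpiLC. Replicates of a group differed by more than sampling noise, with chi-square values per degree of freedom between 1.61 and 28.3. The labels number the replicates as biological but do not say what separates them. Reads were counted without a stated strand setting, and Sox17 shares 16.85% of its exonic length with the opposite-strand gene Gm37587. Pdgfra shares 4.55% with Gm42802, 1.66% with Gm42803 and 0.3% with Mir7025, Dab2 shares 2.87%, Cubn 2.46% and Gata6 1.43% of exonic length with another gene, and no overlap was found for Gata4, Sox7, Foxa2 and Sparc.

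All 9 genes are annotated as protein-coding, and reads were counted over their exons. On GRCm38 the minus strand holds Gata4 on chromosome 14 at 63198922 to 63271692, Sox17 on chromosome 1 at 4490931 to 4497354, Foxa2 on chromosome 2 at 148042877 to 148046969, Sparc on chromosome 11 at 55394500 to 55423183 and Cubn on chromosome 2 at 13276338 to 13491813. The plus strand holds Sox7 on chromosome 14 at 63943673 to 63950732, Pdgfra on chromosome 5 at 75152292 to 75198215 and Dab2 on chromosome 15 at 6299788 to 6440712. Gata4 and Sox7, which lie on the same chromosome, differed in direction between mESC-ser and mESC-2i.

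Levels per exon length set Sparc apart from the other markers. The mean of Sparc was 72.2 RPKM, which is CPM per kilobase of exon, in the mESC-2i libraries, 56.4 in those of mESC-ser and 27.5 in those of EpiLC, and Sparc held between 78.6% and 93.7% of the counts of the 9 markers in a library. The next marker in each state was Dab2, at 1.58, 2.53 and 0.795 RPKM. In mESC-2i the order went on with Gata4 at 1.18 RPKM, Foxa2 at 0.800, Pdgfra at 0.287, Sox7 at 0.160, Gata6 at 0.131, Sox17 at 0.0965 and Cubn at 0.0180. The libraries of neighbours in that order overlapped for Dab2 and Gata4 and for Sox7 and Gata6.

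In mESC-ser, Cubn moved from last place to the third, at 1.15 RPKM. It was followed by Gata4 at 0.868, Gata6 at 0.652, Pdgfra at 0.474, Sox7 at 0.432, Foxa2 at 0.350 and Sox17 at 0.196 RPKM, and libraries overlapped between neighbours from Gata6 to Foxa2. In EpiLC the third was Foxa2 at 0.613 RPKM, ahead of Gata4 at 0.295 and Cubn at 0.114. Sox17, Sox7, Gata6 and Pdgfra had 0.0902, 0.0508, 0.0355 and 0.0198 RPKM there, and neighbours from Cubn downwards overlapped, as did Dab2 with Foxa2 and Foxa2 with Gata4. Without Sparc, the markers summed to 20.8 to 24.6 CPM in the mESC-2i libraries, 50.7 to 51.7 in those of mESC-ser and 9.17 to 12.8 in those of EpiLC. Leaving out Dab2 and Cubn as well, the sums were 11.2 to 11.3, 14.7 to 16.3 and 2.26 to 4.34 CPM.

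**Figure D1:**
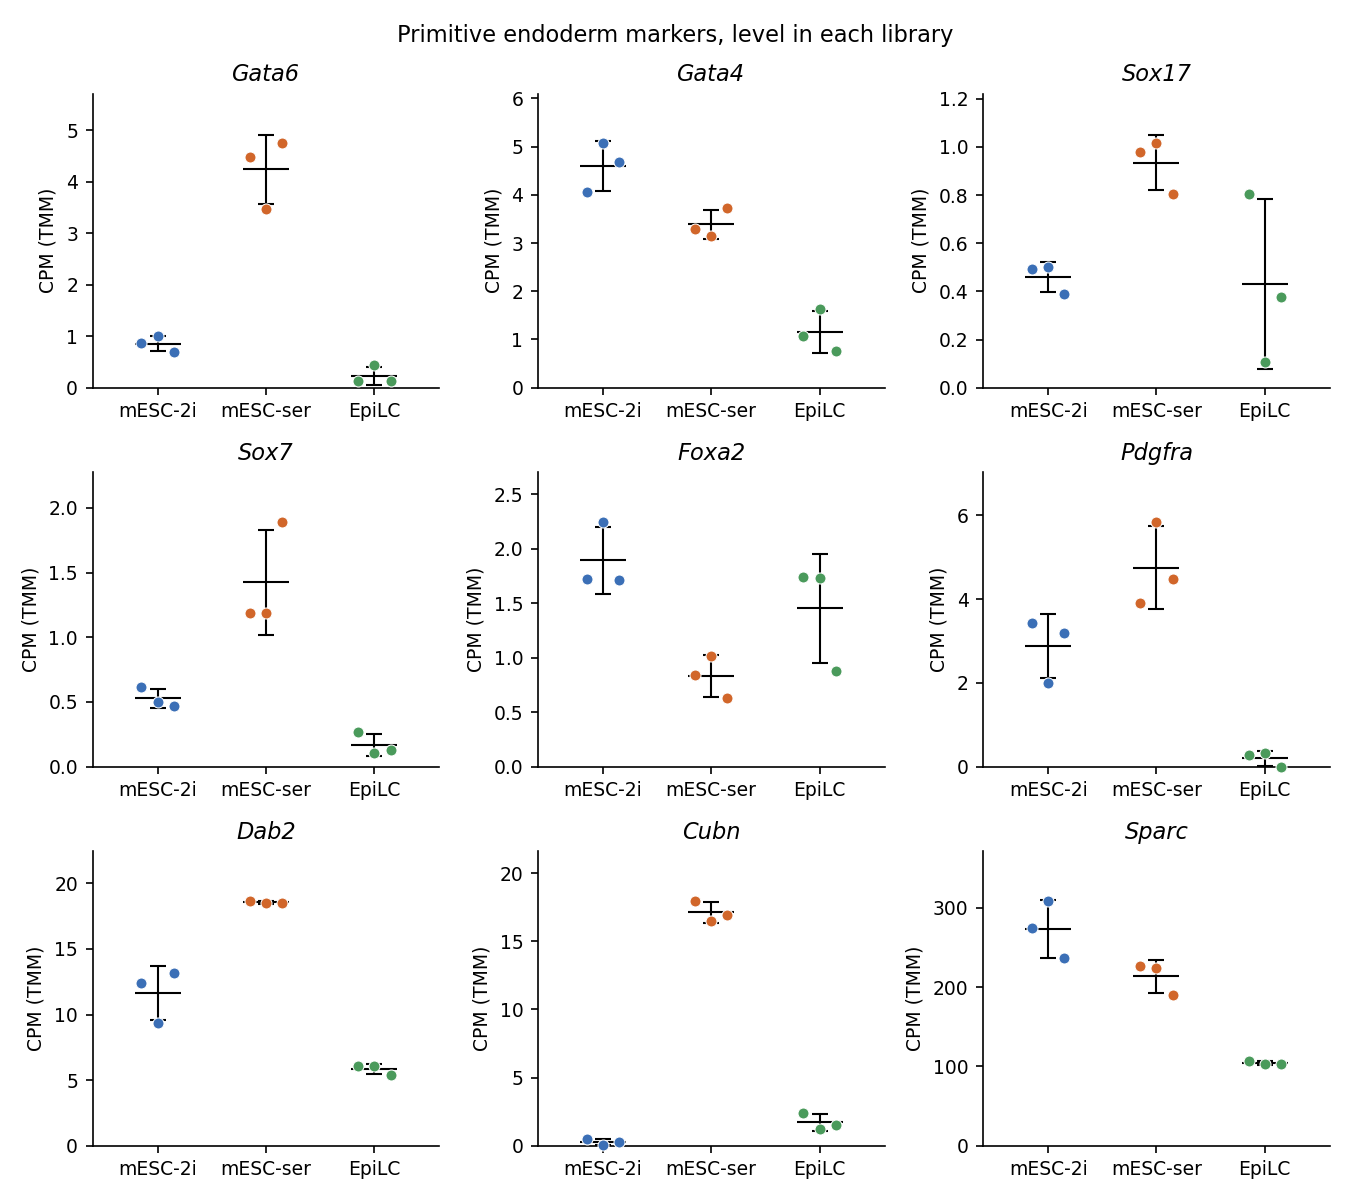
CPM (TMM) of each marker in the 9 libraries, on linear axes from 0 that differ between panels. Points are libraries, horizontal bars are group means and whiskers are 1 SD (n = 3). Cubn and Gata6 are highest in all 3 mESC-ser libraries, Gata4 and Sparc are highest in mESC-2i, and Pdgfra is at 0 to 3 counts in EpiLC.

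The first comparison asked how serum culture differs from 2i culture. A gene was called at an adjusted p under 0.05 (edgeR quasi-likelihood test) and an absolute log2 fold change over 0.5. Of the 15728 genes tested, 56.2% were called, 25.9% higher and 30.3% lower in mESC-ser, so that a call was common in this comparison. Sox17 did not pass the filter on low counts, and of the 8 other markers 5 were called higher and 2 lower. Of these, Gata4 was not called with replicate number as a block, nor under several other settings given below. The groups did not overlap in CPM for any of the 9 markers, 6 of them higher and 3 lower in mESC-ser, against 70.7% of all tested genes. These 9 include Sox17, which was not tested. Over the 9 markers the median log2 fold change in a fit without the filter was 0.70, beside 0.02 over all genes in that fit.

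Gata6, the factor that opens the primitive endoderm program, had 7, 12 and 9 counts in mESC-2i replicates 1, 2 and 3 and 64, 41 and 83 counts in mESC-ser. Every mESC-ser library was above every mESC-2i library. In CPM this was 0.854 ± 0.150 (SD, n = 3) and 4.24 ± 0.676, which is 2.26 on the log2 scale (SE 0.26, edgeR adjusted p = 2.89e-05). The gene lies on the plus strand of chromosome 18 at 11052064 to 11085635 (GRCm38).

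Gata4, a related zinc finger factor that acts after Gata6, went the other way. Its levels were 4.05, 5.09 and 4.68 CPM in the mESC-2i libraries against 3.29, 3.14 and 3.73 in mESC-ser, and the groups did not overlap. The log2 fold change was -0.50 (SE 0.18, edgeR adjusted p = 0.0315), just past the fold threshold. With replicate number as a block it was -0.495 (adjusted p = 0.0384), short of that threshold. It was also short of it under RLE scaling, without a filter, with DESeq2 and with all 9 libraries in 1 fit, at -0.47 each. The same held with a minimum of 10 counts in every library, at -0.45, and with a correction for gene length and GC content, at -0.33. The adjusted p also missed its threshold without a filter (edgeR, 0.074), with all 9 libraries (edgeR, 0.0501), with the correction (edgeR, 0.0988) and with DESeq2 (0.132). Leaving out mESC-2i replicate 2 (-0.44) or 3 (-0.49), or mESC-ser replicate 1 (-0.45) or 2 (-0.41), also ended the call. The edgeR adjusted p in these fits was 0.0943, 0.0454, 0.124 and 0.134, in that order. Gata4 stayed called with upper-quartile (-0.54) and total-count scaling (-0.55), and without mESC-2i replicate 1 or mESC-ser replicate 3 (-0.57 each).

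The SOX genes of the F group encode related factors active in endoderm and endothelium. Sox7 had 5, 6 and 6 counts in mESC-2i against 17, 14 and 33 in mESC-ser. Its groups were apart in CPM, and the fitted log2 change was 1.42 (SE 0.36, edgeR adjusted p = 0.00481). Sox17 had 4, 6 and 5 counts in mESC-2i and 14, 12 and 14 in mESC-ser, also apart. A fit without the filter gave Sox17 a log2 fold change of 0.98 (edgeR adjusted p = 0.0808), so the difference was not called. Without mESC-ser replicate 3, Sox17 passed the filter and was called higher (1.07, edgeR adjusted p = 0.0395). It also passed the filter without mESC-2i replicate 1, 2 or 3 and was not called there (edgeR adjusted p = 0.059, 0.0669 and 0.109). The ratio of pooled Sox17 counts was 2.02, with an exact 95% interval of 1.09 to 3.94 that covers counting error only.

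Foxa2, a forkhead factor of visceral and definitive endoderm and of node and floor plate, was the other factor lower in serum. Levels were 1.72, 2.25 and 1.72 CPM in the mESC-2i libraries against 0.840, 1.02 and 0.632 in mESC-ser. The groups were apart, with a fitted log2 change of -1.28 (SE 0.29, edgeR adjusted p = 0.00276).

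Pdgfra encodes the receptor for PDGF-A and marks committed primitive endoderm in the blastocyst. It measured 3.44, 2.00 and 3.20 CPM in the mESC-2i libraries against 3.92, 5.85 and 4.48 in mESC-ser. The groups were apart by a narrow margin, and the fitted log2 change was 0.67 (SE 0.25, edgeR adjusted p = 0.0373). The call was lost without mESC-2i replicate 2 (0.44), without mESC-ser replicate 2 (0.54) or replicate 3 (0.72, edgeR adjusted p = 0.0641), and with total-count scaling (0.63, edgeR adjusted p = 0.0504).

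Dab2 encodes a clathrin adaptor that binds the tails of endocytic receptors, among them megalin. Levels were 12.4, 9.34 and 13.2 CPM in the mESC-2i libraries against 18.7, 18.5 and 18.5 in mESC-ser. All mESC-ser libraries were higher, by 0.62 on the log2 scale (SE 0.15, edgeR adjusted p = 0.00454). Without mESC-2i replicate 2 the value was 0.46 and was no longer called.

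Fold changes between mESC-ser and mESC-2i followed exonic length across 15534 genes (Spearman 0.27, a description over genes that are not independent replicates). Pdgfra, Dab2 and Cubn have the longest exonic lengths of the markers, 10024, 7342 and 14935 bp. With the length and GC correction, the log2 fold changes of Pdgfra and Dab2 were 0.30 each and neither was called, while Cubn was at 5.42, Gata6 at 2.23 and Sox7 at 1.71. What the dependence on length comes from was not tested.

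Cubn encodes cubilin, the large peripheral receptor for vitamin B12 with intrinsic factor, which the visceral endoderm uses for uptake from the maternal side. It had 4, 1 and 3 counts in mESC-2i against 257, 194 and 295 in mESC-ser, that is 0.270 ± 0.206 and 17.1 ± 0.782 CPM (SD, n = 3). The groups were far apart. The log2 fold change was 6.03 (SE 0.30, edgeR adjusted p = 9e-08). Since the mESC-2i value rests on 8 counts, the ratio of pooled counts was 70.7 with an exact 95% interval of 35.7 to 164.

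Sparc encodes osteonectin, a collagen-binding glycoprotein abundant in parietal endoderm. Its levels were 274.2, 309.4 and 236.4 CPM in the mESC-2i libraries against 226.7, 224.8 and 189.7 in mESC-ser. The mESC-2i libraries were all higher. On the log2 scale the difference of -0.41 (SE 0.12, edgeR adjusted p = 0.0132) passed the p threshold and not the fold threshold, so Sparc was not called.

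**Figure D2:**
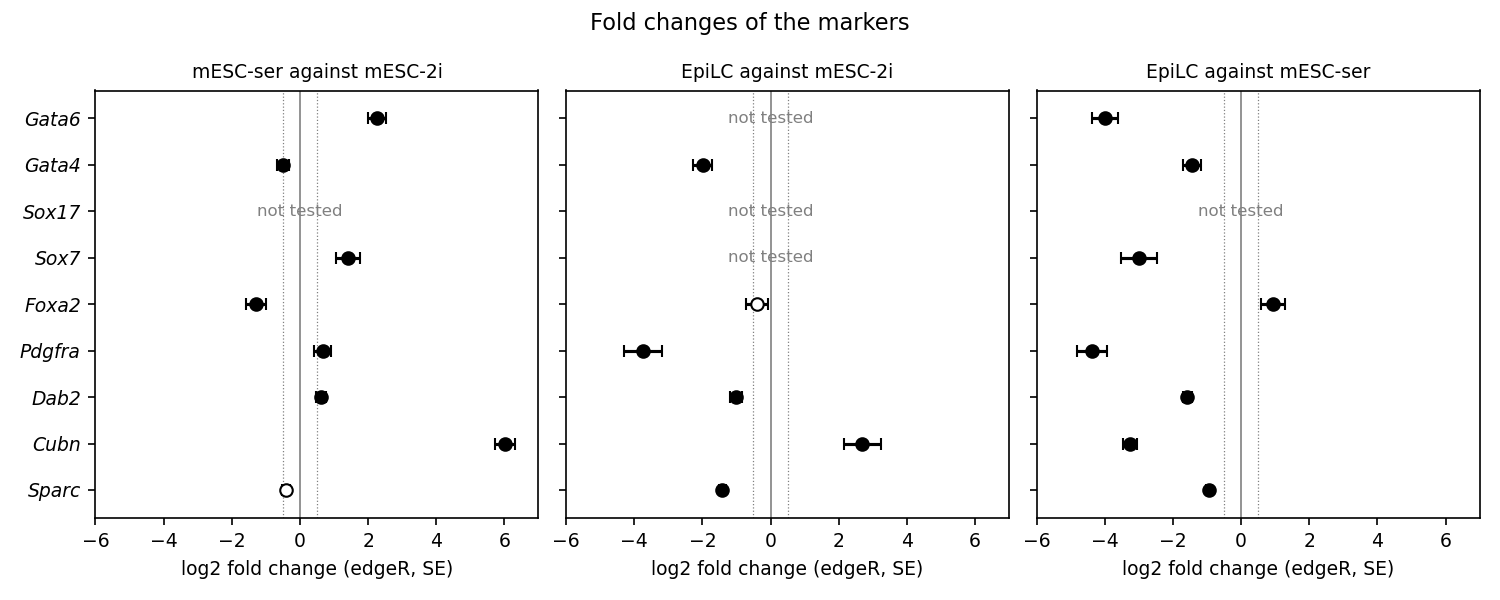
Log2 fold change of each marker (x axis, edgeR, whiskers 1 SE) in the 3 pairs of groups. Filled points are called, open points are not, and dotted lines mark 0.5 in either direction. Cubn is the marker farthest to the right in the first 2 panels, and in the third Foxa2 alone lies above 0.

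The balance of the 2 GATA factors gives a ratio within each library that no scaling alters. Gata6 per Gata4, in reads per kilobase, was 0.127, 0.118 and 0.0900 in mESC-2i and 0.817, 0.665 and 0.766 in mESC-ser. In EpiLC it was 0.0750, 0.160 and 0.100, from only 6 Gata6 counts in all. The mESC-ser libraries stood apart from the other 6, but 3 libraries against 3 cannot give an exact two-sided permutation p below 0.1.

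**Figure D3:**
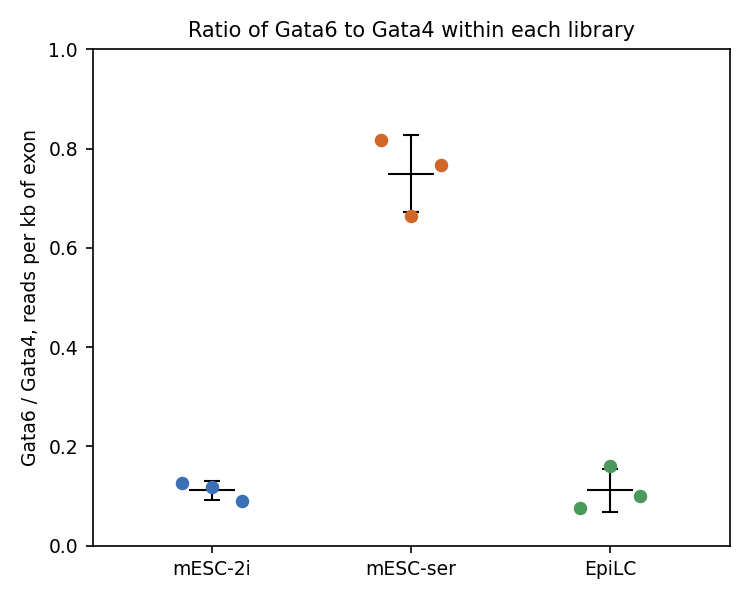
Ratio of Gata6 to Gata4 in reads per kilobase of exon (y axis) in each library, with group mean and SD (n = 3). The 3 mESC-ser libraries lie between 0.665 and 0.817, above the 6 others, which reach 0.160 at most.

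The second comparison set EpiLC against the mESC-2i state from which they were made. Of 15378 genes tested, 69.8% were called, 32.0% higher and 37.8% lower in EpiLC. Gata6, Sox17 and Sox7 did not pass the filter. Of the other 6 markers 4 were called lower and 1 higher. The groups were apart for 7 of the 9 markers, 6 lower and 1 higher, against 81.8% of all tested genes. Without the filter the median over the 9 markers was -1.43, beside -0.17 over all genes.

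The third comparison set EpiLC against mESC-ser. It shares the EpiLC libraries with the second and the mESC-ser libraries with the first, so its values are not independent of theirs. Of 15345 genes tested, 73.3% were called, 35.5% higher and 37.8% lower in EpiLC. Sox17 did not pass the filter, and of the 8 others 7 were called lower and 1 higher. The groups were apart for 7 of the 9 markers, each lower in EpiLC, against 85.7% of all tested genes. These 9 include Sox17, which was not tested. The median over the 9 markers without the filter was -1.66, beside -0.23 over all genes.

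Pdgfra was the lowest marker per length in EpiLC, with 2, 3 and 0 counts in the 3 libraries. Against 93 counts in mESC-2i and 203 in mESC-ser, pooled and scaled, mESC-2i was 13.9 times as high (exact 95% interval 5.75 to 43.8) and mESC-ser 23 times (9.69 to 71.6). The EpiLC libraries were below all 6 others. Both differences were called, with edgeR adjusted p-values of 8.05e-05 and 7.74e-08. Without EpiLC replicate 2 the log2 fold changes were -4.34 and -4.98, in place of -3.74 and -4.38.

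Gata6 had 1, 4 and 1 counts in EpiLC. It was 17.7 times as high in mESC-ser (exact 95% interval 8 to 49, edgeR adjusted p = 5.39e-08), and the log2 fold change between them was -4.0, or -4.85 without EpiLC replicate 2. Relative to mESC-2i the ratio was 3.49 (1.42 to 10.3), and the fit without the filter called Gata6 lower in EpiLC, at a log2 fold change of -1.79 (edgeR adjusted p = 0.0153). Gata6 was thus lowest in EpiLC, with no overlap with either mESC state.

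Gata4 measured 1.07, 1.63 and 0.754 CPM in EpiLC, below all mESC libraries. The log2 fold change was -1.99 (SE 0.28, edgeR adjusted p = 7.26e-05) against mESC-2i and -1.44 (SE 0.28, edgeR adjusted p = 0.000127) against mESC-ser. Both GATA factors were therefore lowest in EpiLC although they were ordered differently in the mESC states.

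Sox7 had 2, 1 and 1 counts in EpiLC, against which mESC-ser was 9.06 times as high (exact 95% interval 3.37 to 34.3, edgeR adjusted p = 5e-05). Against mESC-2i the ratio was 3.18 (1.04 to 13.0), with the groups apart. The fit without the filter did not call Sox7 (-1.63, edgeR adjusted p = 0.0764), whereas 1 fit of all 9 libraries called it lower in EpiLC (-1.62, edgeR adjusted p = 0.0292). Sox17 had 6, 1 and 3 counts in EpiLC and overlapped with both mESC states. Without the filter its log2 fold change was -0.19 (edgeR adjusted p = 0.826) against mESC-2i and -1.16 (edgeR adjusted p = 0.0385) against mESC-ser. In the filtered fit without EpiLC replicate 2 the second value was -0.56 (edgeR adjusted p = 0.303).

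Foxa2 was the exception among the factors. Its levels in EpiLC were 1.75, 1.74 and 0.880 CPM, so that replicate 3 lay within the mESC-ser range and the other 2 within the mESC-2i range. The log2 fold change was -0.40 (SE 0.32, edgeR adjusted p = 0.264) against mESC-2i. Against mESC-ser it was 0.93 (SE 0.35, edgeR adjusted p = 0.0211), although the groups overlapped. That call was lost with total-count scaling (0.59), with DESeq2 (adjusted p = 0.0773), with the length and GC correction (0.38), and without mESC-ser replicate 3 (0.74), EpiLC replicate 1 (0.82) or EpiLC replicate 2 (0.77).

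Dab2 was at 6.04, 6.08 and 5.40 CPM in EpiLC, below all mESC libraries. The log2 fold change was -1.01 (SE 0.18, edgeR adjusted p = 0.000426) against mESC-2i and -1.58 (SE 0.13, edgeR adjusted p = 6.31e-09) against mESC-ser. Sparc measured 106.8, 103.0 and 102.6 CPM, also below all mESC libraries. Its log2 fold changes were -1.41 (SE 0.11, edgeR adjusted p = 7.68e-07) and -0.95 (SE 0.09, edgeR adjusted p = 2.64e-08). Even at its lowest, Sparc remained the most abundant marker per length.

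Cubn alone was higher in EpiLC than in mESC-2i and lower than in mESC-ser, with 18, 11 and 12 counts, or 1.71 ± 0.635 CPM (SD, n = 3). It was 6.86 times as high as in mESC-2i (exact 95% interval 3.17 to 16.9, edgeR adjusted p = 0.00072). In turn mESC-ser was 10.3 times as high as EpiLC (7.52 to 14.5, edgeR adjusted p = 1.06e-10). The 3 groups did not overlap in CPM. The fitted log2 fold change against mESC-2i was 2.70, and it was 3.30 without mESC-2i replicate 1 and 2.29 without mESC-2i replicate 2, called in both.

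Fold changes of EpiLC also followed exonic length, in the negative direction (Spearman -0.32 against mESC-2i and -0.47 against mESC-ser over genes). With the length and GC correction, the log2 fold change between EpiLC and mESC-ser was -1.91 for Cubn in place of -3.27, -0.79 for Dab2 in place of -1.58 and -3.43 for Pdgfra in place of -4.38. All 3 were still called lower. Relative to mESC-2i the corrected values were 3.41 for Cubn in place of 2.70, -0.56 for Dab2 in place of -1.01 and -3.18 for Pdgfra in place of -3.74, all still called.

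Cubilin has no membrane anchor and needs amnionless (Amn) to reach the surface, and it works with megalin (Lrp2), whose tail binds Dab2. Lrp2 followed the order of Cubn at a much higher level, with 8.23, 5.09 and 9.43 CPM in the mESC-2i libraries, 256.7, 268.9 and 315.4 in mESC-ser libraries and 83.8, 78.8 and 84.1 in EpiLC libraries. The log2 fold changes were 5.15 (SE 0.21, edgeR adjusted p = 3.34e-08) in mESC-ser and 3.42 (SE 0.18, edgeR adjusted p = 6.33e-08) in EpiLC, both against mESC-2i. Amn lay between 0.491 and 2.64 CPM in the 9 libraries and was not called, with log2 fold changes of 0.38 (edgeR adjusted p = 0.331) in mESC-ser and 0.86 (edgeR adjusted p = 0.066) in EpiLC against mESC-2i, and 0.53 (edgeR adjusted p = 0.118) in EpiLC against mESC-ser.

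**Figure D4:**
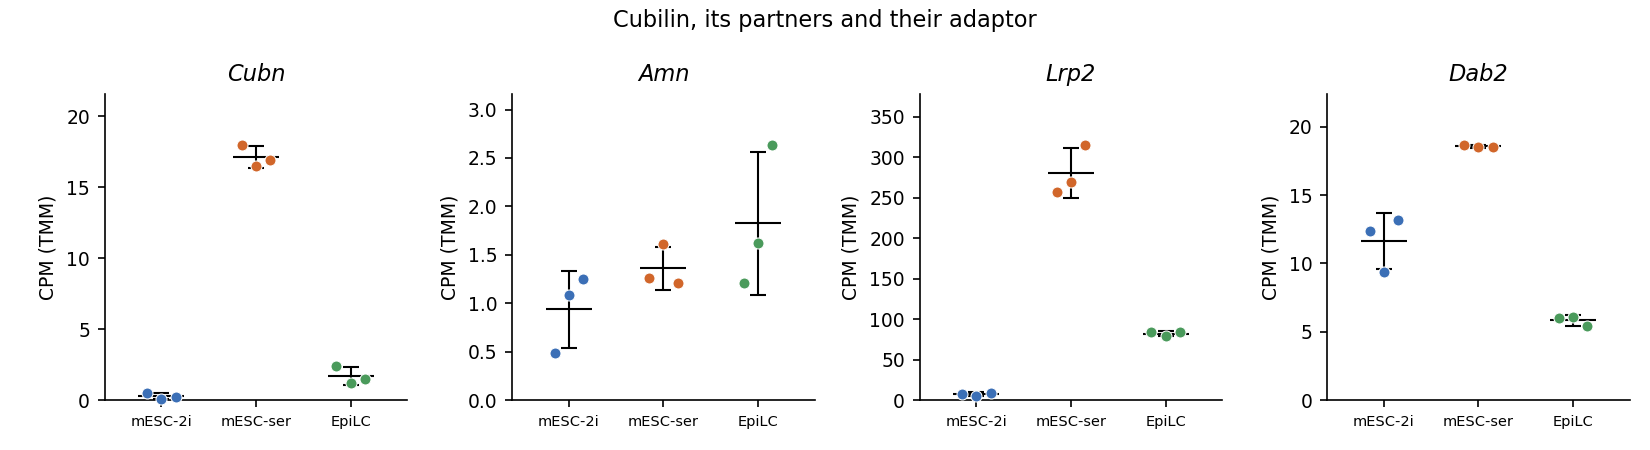
CPM (TMM) of Cubn, Amn, Lrp2 and Dab2 in each library, on linear axes from 0 that differ between panels, with group mean and SD (n = 3). Cubn and Lrp2 are highest in mESC-ser and intermediate in EpiLC, the Amn libraries overlap across states, and Dab2 is lowest in EpiLC.

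Per length, Cubn reached between 1.26 and 1.76 times the level of Amn in the mESC-ser libraries. The ratio was 0.123 or less in mESC-2i and 0.247 or less in EpiLC. Relative to Lrp2, Cubn lay between 0.0601 and 0.0784 in mESC-ser. Cubn transcripts thus stayed well below those of Lrp2 in every library.

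Of 14 paralogs and partners of the markers, 12 were tested in each comparison. In mESC-ser against mESC-2i 4 were called higher and 4 lower, with a median log2 fold change of -0.00375, beside -0.04 over all tested genes. Of all tested genes 25.9% were called higher and 30.3% lower. Gata1, an erythroid GATA factor, and Gata3, a trophectoderm factor, were higher by 2.50 and 1.95. Foxa1, the closest relative of Foxa2, was lower by a log2 fold change of -1.28, the same size as Foxa2 itself. Dab1, the paralog of Dab2, was higher by 2.02, in the same direction as Dab2. Gata2 (-0.22) and Foxa3 (0.21) were not called, and Gata5 was near 0 in every library.

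In EpiLC 7 of these 14 were called lower and 3 higher than in mESC-2i, and 8 lower and 2 higher than in mESC-ser. The medians were -2.54 and -1.63, beside -0.11 and -0.07 over all tested genes. Of all tested genes 37.8% were called lower in each comparison, and 32.0% and 35.5% higher. Gata3 had 2 counts in EpiLC in all, against 43 in mESC-2i and 230 in mESC-ser. Foxa1 had 1 count in EpiLC in all, against 81 in mESC-2i, a contrast to Foxa2 with 36 and 63. Sox18, the third gene of the SOX F group, was higher in EpiLC, by 2.46 (edgeR adjusted p = 0.000509) against mESC-2i and 1.76 (edgeR adjusted p = 8.77e-05) against mESC-ser. Its mean there was 2.08 ± 0.485 CPM (SD, n = 3). Dab1 was also higher in EpiLC, by 2.93 and 0.95, where Dab2 was lower. Foxa3 was not called in either comparison (-0.52 and -0.69).

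The ligands of Pdgfra did not follow their receptor between the mESC states. Pdgfa, the ligand for PDGFRA homodimers, measured 74.4, 75.2 and 77.6 CPM in the mESC-2i libraries against 45.4, 42.0 and 49.4 in mESC-ser. It was called lower in serum (log2 fold change -0.79, SE 0.10, edgeR adjusted p = 6.67e-05), while Pdgfra was higher. In EpiLC it was 6.31, 6.08 and 6.03 CPM, and the fold changes were -3.64 and -2.81. Pdgfa shares 26.07% of its exonic length with the antisense gene 6330403L08Rik. Pdgfc was called lower in the same order of states, and Pdgfb (-0.26 in serum, not called) was called lower only in the comparisons with EpiLC. The receptor paralog Pdgfrb was lower in serum (-0.67) and in EpiLC against both mESC states (-2.60 and -1.89).

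FGF signalling through MEK lies upstream of Gata6, and the MEK inhibitor is present in mESC-2i alone. The mESC states also differ in the GSK3 inhibitor, serum and base medium, and the parts of these cannot be told apart. Whether the MEK inhibitor bears on the values below was not tested. Of 8 genes of this input, 5 were called between mESC-ser and mESC-2i, each higher in serum, and the median of the list was 0.65. Over all tested genes 56.2% were called, 25.9% higher, and the median was -0.04. Fgfr2, the receptor that prevails in primitive endoderm, measured 4.79, 5.84 and 4.44 CPM in the mESC-2i libraries, 20.4, 16.4 and 21.5 in mESC-ser libraries and 5.91, 4.45 and 5.28 in EpiLC libraries. It was called higher in mESC-ser, by 1.90 (SE 0.17, edgeR adjusted p = 4.72e-06), and EpiLC overlapped with mESC-2i (0.03, edgeR adjusted p = 0.908). Fgfr1 (0.63), the adaptor Frs2 (0.93), Sos1 (0.66) and the phosphatase Ptpn11 (1.13) were the others called higher, and the adaptors Grb2 (-0.12) and Shc1 (0.20) were not called. With the length and GC correction 3 genes of the list were called.

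Fgf4, the ligand, was at -0.40 in mESC-ser and was not called. In EpiLC against mESC-2i 4 of the 8 genes were called, each lower, with Frs2 at -1.95, Grb2 at -0.78, Sos1 at -0.60 and Fgf4 at -0.50. Against mESC-ser 5 were called, each lower, with Frs2 at -2.84 and Fgfr2 at -1.83. Shc1 was not called in either comparison (-0.10 and -0.25). The medians were -0.47 and -0.92, beside -0.11 and -0.07 over all tested genes, of which 37.8% were called lower in each comparison.

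Markers of the derivatives of primitive endoderm were compared in the same fits. Of 14 visceral endoderm genes, 7 passed the filter in mESC-ser against mESC-2i, with 2 called higher (Lrp2 and Apob, at 5.15 and 3.39) and 3 lower (Apom -2.13, Hnf4a -1.48 and Cited1 -1.35), and a median of -0.48. Afp and Apoa4, which encode secreted proteins of the mature tissue, had 0 counts in all mESC-ser libraries, and Ttr and Apoa1 were at the floor of 3 counts. The whole list summed to 22.2 to 23.1 CPM in the mESC-2i libraries, 266 to 325 in those of mESC-ser and 91.8 to 98.2 in those of EpiLC, most of it Lrp2 in the serum and EpiLC libraries. Without Lrp2 it summed to 13.3 to 17.1 CPM in the mESC-2i libraries, 9.38 to 10.8 in those of mESC-ser and 13.0 to 14.2 in those of EpiLC.

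In EpiLC, 3 of the 14 visceral endoderm genes were called higher and 3 lower than in mESC-2i, and 3 higher and 2 lower than in mESC-ser. Trf, which encodes transferrin, was higher by 3.92 against mESC-ser (edgeR adjusted p = 2.86e-08), at 3.12 ± 0.445 CPM. It shares 63.49% of its exonic length with the protein-coding gene Gm20425 on the same strand, so that the counts of Trf are uncertain. Apob was lower by a log2 fold change of -1.98 in that comparison, and Hnf4a was at -2.11 against mESC-2i, with 7 counts in EpiLC in all. The medians were 0.13 and 0.53, beside -0.11 and -0.07 over all tested genes. Of all tested genes 32.0% were called higher against mESC-2i and 35.5% against mESC-ser, and 37.8% lower in each comparison.

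Parietal endoderm lays down a thick basement membrane, of which Sparc is one component. Of 14 genes of this list, 4 were called higher and 6 lower in mESC-ser against mESC-2i, with a median of -0.50. The higher genes were Hspg2 (1.61), which encodes perlecan, Col4a1 (1.40), Lamb1 (1.06) and Col4a2 (0.93). The laminin gene Lama1 (-0.91) and Nid1 (-0.80), which encodes nidogen, were lower, as were Serpinh1 (-1.0), Fst (-1.94), Stra6 (-1.79) and Plat (-2.15). The collagen IV and perlecan genes thus differed in sign from Sparc, which was not called (-0.41), and Lama1 and Nid1 had its sign. With the length and GC correction Sparc was at -0.13 (edgeR adjusted p = 0.297).

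In EpiLC the genes of this list were mostly lower, as Sparc was. Of the 14, 9 were called lower and 2 higher than in mESC-2i. Against mESC-ser 8 were called lower and 3 higher, and the medians of the 2 comparisons were -1.46 and -1.91. Over all tested genes 37.8% were called lower in each comparison, with medians of -0.11 and -0.07. Lama1 was at -6.04 against mESC-2i and Nid1 at -5.18 against mESC-ser, larger falls than those of Sparc. Lamb1 was higher in EpiLC than in mESC-2i (0.82), and Stra6, the receptor for retinol-binding protein, was higher against both mESC states (1.05 and 2.88).

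Foxa2 is also a definitive endoderm gene, and 10 genes listed for that tissue and for the anterior visceral endoderm were set beside it. Of these, T and Mixl1 are primitive streak genes rather than markers of either tissue. In mESC-ser against mESC-2i 7 of the 10 were tested and 6 were called, each lower, beside 30.3% of all tested genes called lower. T was at -4.34, Gsc at -5.21, Cxcr4 at -3.39, Foxa1 at -1.28, Hhex at -0.95 and Eomes at -0.90. The median was -1.28, the same as the value of Foxa2. In EpiLC 6 were called lower and 1 higher than in mESC-2i. Lefty1, a Nodal antagonist, was the 1 that rose, by 1.83, and T was at -6.0. Against mESC-ser, 2 were called higher (Lefty1 2.32 and Mixl1 2.23) and 2 lower (T -1.62 and Hhex -1.53). The medians were -3.18 and 0.25, beside -0.11 and -0.07 over all tested genes. Of all tested genes 37.8% were called lower in each comparison, and 32.0% and 35.5% higher. Cer1 was at the floor in all 3 groups.

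**Figure D5:**
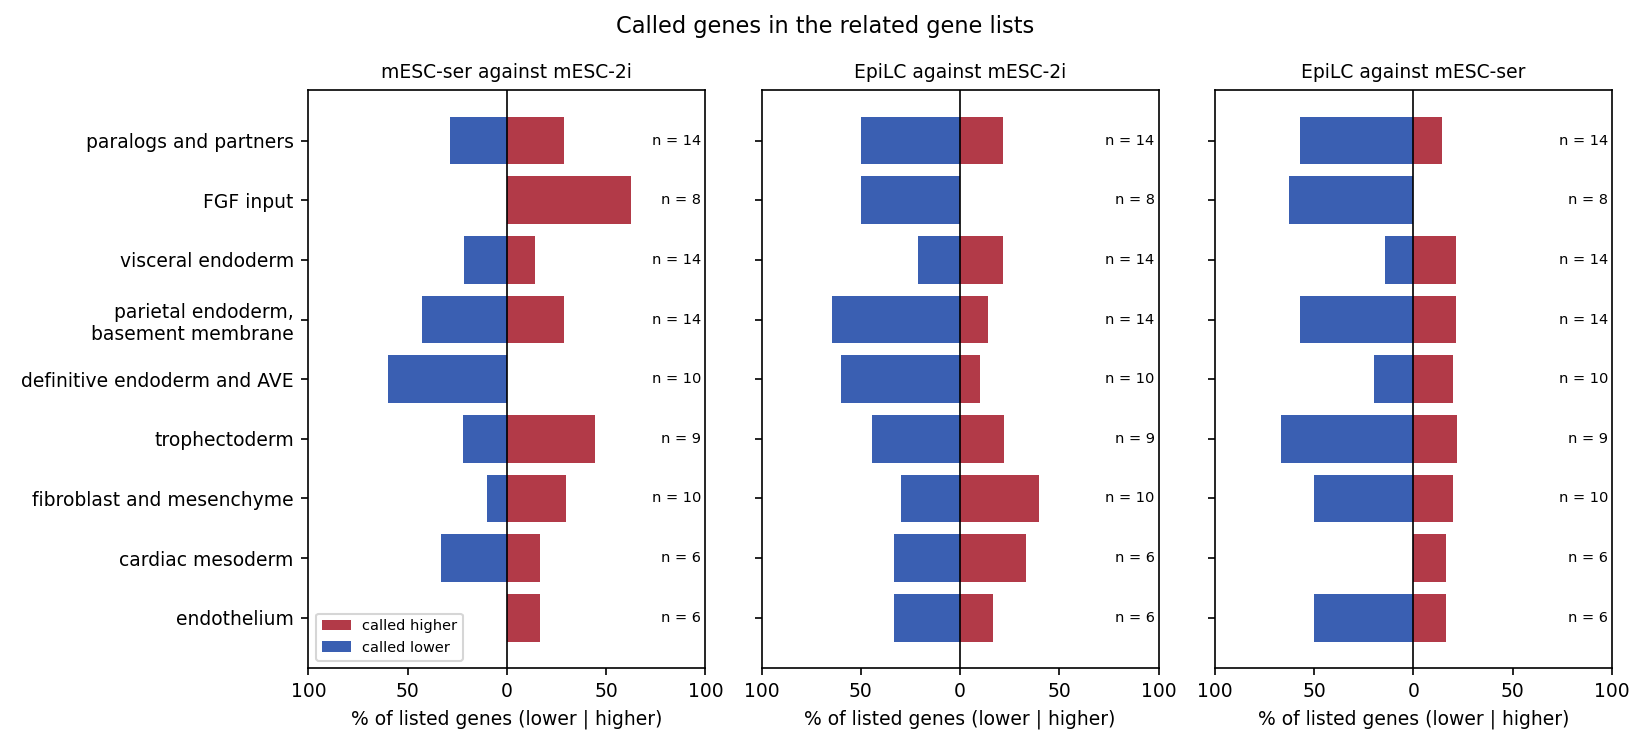
Share of the genes of each list (x axis, % of listed genes, lower to the left and higher to the right) called in the 3 pairs of groups, with the number of listed genes at the right. In mESC-ser against mESC-2i the called genes of FGF input are 5 higher, and those of definitive endoderm with anterior visceral endoderm (AVE) are 6 lower. Of all genes tested there, 25.9% are called higher and 30.3% lower.

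Because Pdgfra, Sparc, Gata4 and the SOX genes are also expressed outside endoderm, markers of other cell types were read in the same libraries. The 10 fibroblast and mesenchyme genes summed to 50.6 to 58.3 CPM in the mESC-2i libraries, 199 to 213 in those of mESC-ser and 62.4 to 68.3 in those of EpiLC. In mESC-ser against mESC-2i 3 were called higher (Tagln 6.14, Acta2 3.87 and Col1a1 1.09) and 1 lower (Col3a1 -2.54), Lum was at the floor, and Twist1 (0.20) was not called. Tagln shares 62.42% of its exonic length with the antisense gene Gm48529, so that its value is uncertain. In EpiLC 4 were called higher and 3 lower than in mESC-2i, and 2 higher and 5 lower than in mESC-ser, with Dcn at 4.08 and 5.70. Col3a1 had 5 counts in EpiLC against 394 in mESC-2i, and Col1a1 was at -4.92 against mESC-ser. The medians of the 3 comparisons were 0.48, 0.75 and -2.17, beside -0.04, -0.11 and -0.07 over all tested genes. Among all tested genes 25.9%, 32.0% and 35.5% were called higher and 30.3%, 37.8% and 37.8% lower. The part of such cells in the values of Pdgfra and Sparc was not tested.

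The 9 trophectoderm genes summed to 128 to 148, 244 to 267 and 87.4 to 90.5 CPM in mESC-2i, mESC-ser and EpiLC. In mESC-ser against mESC-2i 4 were called higher, among them Krt18 (3.05), Krt8 (1.58) and Hand1, with 200 counts against 2, and 2 were lower, Cdx2 (-2.70) and Tfap2c (-0.96). Elf5, a defining marker, was at the floor in every group. In EpiLC 2 were called higher and 4 lower than in mESC-2i, with Krt18 at 2.35 and Tfap2c at -5.85. Against mESC-ser 2 were higher and 6 lower, with Ascl2 at 1.69. The medians were 1.03, -1.22 and -2.87, beside -0.04, -0.11 and -0.07 over all tested genes. Among all tested genes 25.9%, 32.0% and 35.5% were called higher and 30.3%, 37.8% and 37.8% lower. The part of trophectoderm cells in the marker values was not tested.

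The 6 cardiac mesoderm genes, a tissue in which Gata4 and Gata6 are strongly expressed, summed to 10.3 to 12.5, 14.1 to 18.7 and 17.6 to 20.7 CPM. In mESC-ser against mESC-2i, Myh6 was higher (4.69), and Tnnt2 (-4.58) and Tbx5 (1 count against 102) were lower. In EpiLC, Myh6 (4.40) and Myl7 (2.28) were higher than in mESC-2i, Tnnt2 (-2.59) and Tbx5 (1 count) were lower, and Myl7 (1.83) was higher than in mESC-ser. The 6 endothelial genes, which include Sox18, summed to 29.2 to 32.4, 28.8 to 30.8 and 5.64 to 6.73 CPM. In serum Tie1 was the 1 gene called (1.30, higher), and in EpiLC Kdr fell to 1 count from 219 in mESC-2i and 384 in mESC-ser. Erg was at the floor in all groups. The medians in the 3 comparisons were -2.04, -0.15 and 0.79 for the cardiac and 0.33, -2.61 and -2.35 for the endothelial list. Over all tested genes they were -0.04, -0.11 and -0.07. Among all tested genes 25.9%, 32.0% and 35.5% were called higher and 30.3%, 37.8% and 37.8% lower. The part of either cell type in the marker values was not tested.

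Across the 9 libraries, the genes whose log2 CPM followed each marker most closely were listed as a description over 13726 candidate genes. Rgs16, Adamts1 and Arfgef3 were nearest to Gata6 (Pearson r from 0.991 to 0.995), and Enox1, Igsf11 and Tmem47 to Cubn (0.993 to 0.995). Pfkfb4, Fam234b and Cux2 were nearest to Gata4 (0.989 to 0.994), Icmt, Wdr7 and Spata2 to Sox7 (0.984 to 0.993) and Ppp1r13b, Gsn and Heg1 to Pdgfra (0.988 to 0.989). For Dab2 they were Smad5, Mib1 and Pola1 (0.994 each), for Sparc Plekhf2, Upp1 and Cnn3 (0.992 to 0.997) and for Foxa2, with the weakest match, Rab26, Mgmt and H2-DMb2 (0.955 to 0.962). No marker was among the 3 nearest of another marker. The 9 points share 3 groups.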

How the data were processed

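Poly-A RNA from 9 cultures was sequenced as short single-end reads. According to the submitters' processing notes and the study's methods, the authors checked reads with FastQC, trimmed them with Trim Galore 0.6.6, aligned them to mm10 with HISAT2 2.2.1 and counted them per gene with featureCounts (Subread 2.0.1). The deposited values are raw counts per Ensembl gene. The annotation release, strand setting and handling of reads with several alignments were not given in the sources used here. The library kit does not mark strand, so reads of a gene and an overlapping antisense gene cannot be told apart. Serum columns were matched to samples by the initials of serum and LIF in their names.

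Symbols, positions (GRCm38, the assembly of mm10) and exonic lengths came from GENCODE M21, which matched 36429 of the 38293 genes (95.1%). Promoters came from the RefSeq table, with 1 window per gene, nearest the annotated start, and 5 of the 9 markers had an entry. The 3 pairs of groups were fitted separately, on 6 libraries each, with edgeR 4.0.16 (R 4.3.3, limma 3.58.1), using filterByExpr, TMM and the quasi-likelihood F-test with Benjamini-Hochberg adjustment over all tested genes. Calls needed an adjusted p below 0.05 together with a log2 fold change beyond 0.5 in either direction. SE were derived from the F statistic. CPM were scaled by TMM over the 9 libraries, RPKM used exonic length, and log2 CPM for correlations used a prior count of 2. Intervals of count ratios are exact conditional binomial intervals, and with reads lacking molecular identifiers they cover counting error only. The floor was 3 counts per library. p-values set the difference between groups against the spread between these libraries, 3 per state of the same cell line.

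The 9 members and the 9 other gene lists were chosen with earlier results of these data known. Genes were named by rule: the members, genes of the lists of paralogs, partners and FGF input, from each other list the called gene that rose most and the 1 that fell most in each comparison (10 counts or more on average in the group with the higher level), and the 3 nearest profiles of each member of at least 1 CPM. Other listed genes were named after their values were seen, to complete a count or to state a defining marker. Sets were described by counts and medians without a set test.

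Same-numbered libraries of mESC-ser and mESC-2i correlated in their deviations from the group means at 0.127, 0.18 and 0.34, each over 0.1, which met the criterion for pairing, although mESC-ser replicate 1 correlated more closely with mESC-2i replicate 2 (0.144) and the labels do not say what a replicate number stands for. The reported fits hold no block, and the blocked value is given where it changes a call. For EpiLC the values were 0.0221 to 0.109 against mESC-2i and 0.017 to 0.0339 against mESC-ser, and numbers were not taken to pair. Alternatives were total-count, upper-quartile or RLE scaling, a fit with no filter or with a minimum of 10 counts per library, DESeq2 1.42.0, 1 fit of all 9 libraries, the replicate block, splines of length and GC content with 5 degrees of freedom per library, other thresholds, and each replicate left out. The steps were tested on simulated data. The study's histone modification data were not used here.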

Additional observations from a re-analysis of the deposited data

How the results depend on the processing

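Over the alternatives run, no log2 fold change of a marker changed sign, and 350 of 384 values stayed on their side of the thresholds. The 384 include the other thresholds, which reuse the reported fit, so that no sign could change there. They leave out markers not tested in the reported or the alternative fit, among them Sox17 in every comparison. The number of called markers in mESC-ser against mESC-2i, 7 in the report, was 3 when each library had to hold 10 counts, 4 with the length and GC correction and 4 with an absolute log2 fold change over 1. It ranged from 4 to 7 when each replicate was left out, with 4 without mESC-2i replicate 2. Under the same minimum of 10 counts it was 2 in place of 5 for EpiLC against mESC-2i and 3 in place of 8 for EpiLC against mESC-ser, since fewer markers were tested. Leaving out a replicate gave 5 to 6 and 7 to 8 there. With replicate number as a block, Gata4 in mESC-ser against mESC-2i stood at -0.495, short of the fold threshold, and no other call of a marker changed. Sparc in that comparison was called without mESC-2i replicate 3 (-0.50), and Sox17 without mESC-ser replicate 3 (1.07). Of 486 counts of called list genes, 27 moved by more than 1.5 times.

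Total-count scaling shifted the median of all tested genes to -0.45 for EpiLC relative to mESC-2i and to -0.41 relative to mESC-ser. The share of calls that were higher then fell to 33.7% from 45.9% and to 37.4% from 48.4%. Depth limits Sox17, Sox7, Gata6 and Pdgfra in EpiLC, where libraries held 6 counts or fewer, and Cubn in mESC-2i, where they held at most 4.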
